A study of Homo sapiens with 4 samples.

Results

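Lonidamine (LND) is a small molecule that acts on several proteins of glucose and lactate metabolism, and the 9 genes described here belong to the families of hexokinases, lactate carriers and pyruvate carriers among them. The rule that chose them names the genes and uses no measured value, though earlier results of these data were known when it was written. They are the hexokinases HK1, HK2, HK3 and HKDC1, the monocarboxylate transporters SLC16A1, SLC16A3 and SLC16A7, and the mitochondrial pyruvate carrier subunits MPC1 and MPC2. They are set beside the 22148 genes of the GO background. Listed means that a gene's Ensembl identifier stood under at least 1 GO term of a comparison, and so that the authors had called its mRNA differentially expressed at an adjusted p-value under 0.05. Of the 9 genes, 7 were listed in at least 1 cell line, beside 31.0% of all background genes. A gene that was not listed may have been undetected, unchanged or changed short of the threshold, and the tables do not tell these apart.

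The study sequenced rRNA-depleted total RNA of HepG2 and Huh7, established human liver cancer cell lines, as 4 groups of 1 library each. Group A was HepG2 cells and group C was Huh7 cells, both before treatment. Groups B (HepG2) and D (Huh7) were the same lines after sonodynamic therapy (SDT), in which low-frequency ultrasound activates a sensitizer, given with targeted nanobubbles that carried the sensitizer HMME together with LND. No library of cells given LND alone, ultrasound alone or empty nanobubbles is among the 4, so the parts of the treatment cannot be told apart. The time from treatment to RNA is not given in the sources used here. With 1 library in each group there is no replicate error and no test, and the report compares which genes were listed. The tables hold gene counts per GO term and per KEGG pathway, with no expression level, no depth and no direction of change. Hepatocyte marker levels were therefore not checked. Listed genes may include some with very low expression, as the lncRNAs that the paper called did. In bulk RNA, fewer cells and less RNA per cell cannot be told apart.

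Hexokinases add a phosphate to glucose as it enters the cell, which traps it inside for glycolysis and other pathways. HK1 and HK2 bind the mitochondrial outer membrane at its channel VDAC1, where they have ready access to ATP. Pyruvate, the end product of glycolysis, is either reduced to lactate, which monocarboxylate transporters of the SLC16 family carry out of the cell together with a proton, or moved into the mitochondrion by the carrier that MPC1 and MPC2 form together. LND is known as an inhibitor of mitochondria-bound hexokinase, of lactate export, of mitochondrial pyruvate uptake and of respiratory complex II, all of them actions on proteins, whereas the tables concern mRNA.

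The 4 hexokinases are distinct at the sequence level, which bears on how far their reads can be told apart. The opening 60 coding bases of each are shown because this stretch encodes the start of the protein, by which HK1 and HK2 bind mitochondria. Capitals mark bases equal to HK2 at the same position, and HK2 itself is in lower case. They come from the GENCODE release 29 principal transcripts of HK2 (chr2:74834581-74834640, plus strand), HK1 (chr10:69318948-69319007, plus strand), HKDC1 (chr10:69220436-69220495, plus strand) and HK3 (chr5:176896100-176896159, minus strand), on build GRCh38, and each lies within a coding exon.
HK2: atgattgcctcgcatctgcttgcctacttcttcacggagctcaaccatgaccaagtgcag
HK1: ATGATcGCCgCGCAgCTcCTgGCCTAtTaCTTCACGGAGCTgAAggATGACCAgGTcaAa
HKDC1: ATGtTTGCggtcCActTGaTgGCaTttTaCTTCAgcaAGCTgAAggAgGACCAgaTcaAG
HK3: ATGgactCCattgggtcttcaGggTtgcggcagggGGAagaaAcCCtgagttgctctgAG
HK1 equalled HK2 at 46 of the 60 positions, HKDC1 at 36 and HK3 at 15. The start of HK3 is known to lack the mitochondria-binding stretch. Over the whole coding sequence, HK1 and HK2 had 73.1% of aligned bases in common, HK1 and HKDC1 71.4%, HK2 and HKDC1 71.1%, and HK3 between 60.8% and 63.6% with the others. HK1, HK2 and HKDC1 all had 917 codons, and HK3 had 923.

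The lists of the 2 cell lines held 5 of the 9 genes each, and 3 of the 9 were in both. In HepG2 cells (B vs. A) these were HK2, HK3, HKDC1, SLC16A3 and SLC16A7. In Huh7 cells (D vs. C) they were HK1, HK3, HKDC1, SLC16A7 and MPC2. HK3, HKDC1 and SLC16A7 were therefore listed in both lines, HK2 and SLC16A3 in HepG2 only, HK1 and MPC2 in Huh7 only, and SLC16A1 and MPC1 in neither. Of all background genes, 21.6% were listed in B vs. A, 19.7% in D vs. C and 10.3% in both. Among protein-coding genes of GENCODE release 29 the shares were 23.9% and 21.9%. The 2 comparisons have no library in common. That a gene was listed in one line and not in the other does not show that its response differed, since the difference between the lines could not be tested.

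**Figure D1:**
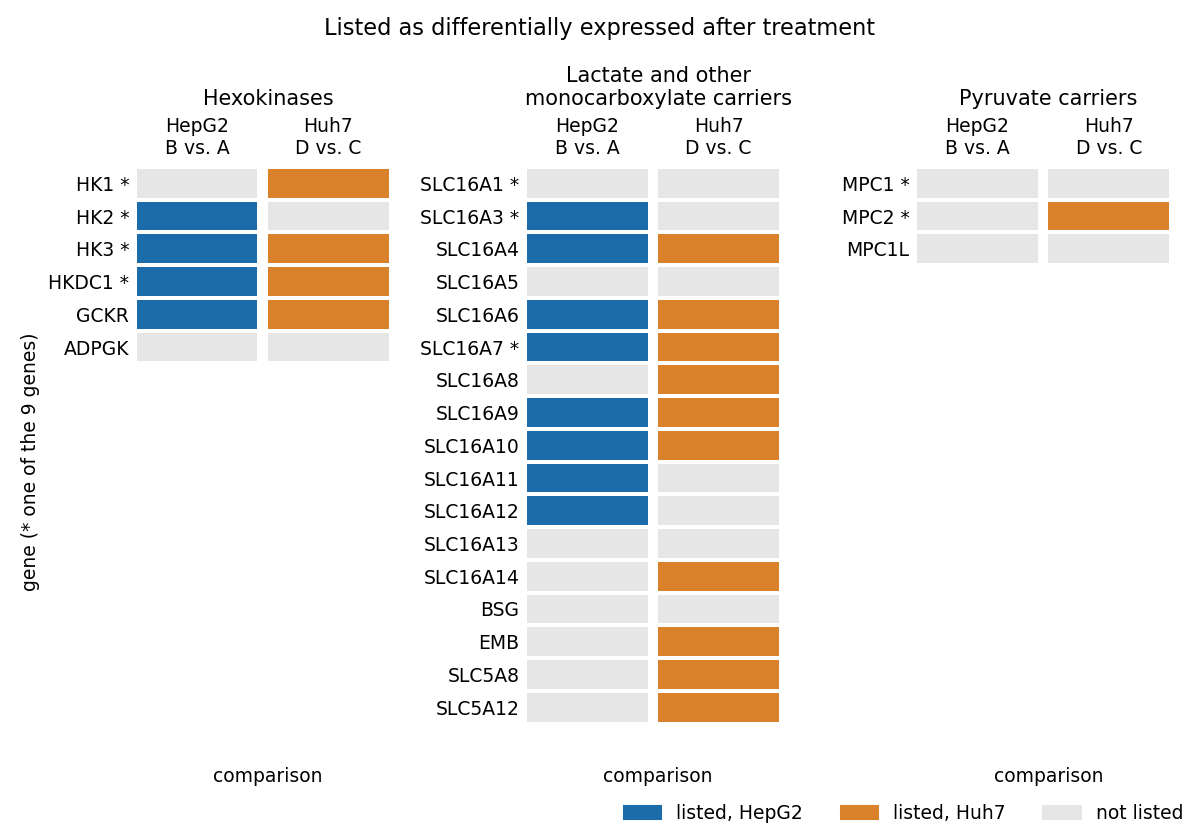
Each row is a gene of the hexokinase, monocarboxylate transporter or pyruvate carrier list and each column is a comparison, with blue (HepG2, B vs. A) or orange (Huh7, D vs. C) tiles for genes listed as differentially expressed, grey tiles for genes not listed and stars at the 9 genes. HK3, HKDC1 and SLC16A7 are filled in both columns, HK2 and SLC16A3 on the HepG2 side, HK1 and MPC2 on the Huh7 side, and SLC16A1 and MPC1 in neither.

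Of the 3 families, the hexokinases had the most complete listing among the 9 genes. All 4 were listed in at least 1 line, beside 31.0% of all background genes. In each line 3 of 4 were listed, beside 21.6% (HepG2) and 19.7% (Huh7). HK3, best known from white blood cells, and HKDC1, the most recently described hexokinase of the family, stood in both lists. HK2, the form of muscle and fat that many tumors express strongly, was listed in HepG2, and HK1, the form of most other tissues, in Huh7. Of HK1 and HK2, each line thus listed 1, and not the same one. GCKR, a regulator of sugar phosphorylation in the liver, was in both lists. ADPGK, which uses ADP to phosphorylate glucose, was in neither. With GCKR and ADPGK, the list of 6 genes had 4 listed in each line.

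HKDC1 and HK1 are neighbours on chromosome 10, on the same strand, with a gap of 2424 bases in GENCODE release 29. None of their stretches of 75 bases occurred in a transcript of another gene, and the same held for HK3. In HK2, 4.16% of such stretches were also found in the processed pseudogene HK2P1, so a small part of the HK2 transcript is uncertain. Among the other genes, 0.349% of the stretches of SLC16A7 and 0.24% of those of SLC16A3 were found elsewhere, and none of those of SLC16A1, MPC1 or MPC2.

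The narrowest GO terms of the hexokinases included hexokinase activity and fructokinase activity, each with 5 background genes. Of these 5 genes, HK2, HK3 and HKDC1 were listed in HepG2 and HK1, HK3 and HKDC1 in Huh7, so that 3 were listed in each line and 4 in either. Glucose binding had 5 of 12 genes listed in each line and 4 in both, with GYS2, the liver glycogen synthase, and SLC2A3, a high-affinity glucose transporter, beside the hexokinases. Glucose 6-phosphate metabolic process had 2 of 10 in each line, which were HK3 together with HK2 in HepG2 and with HK1 in Huh7. Broader terms that held the hexokinases varied in how far the lines were apart, and none of these differences was tested. Glucose homeostasis had 69 and 68 of 247 genes listed (27.9% and 27.5%), with 35 in both. Its shares lay above those of all background genes in both lines. Glycolysis had 22 of 76 genes listed in HepG2 (28.9%) and 14 in Huh7 (18.4%), with 8 in both. Glucose metabolic process had 70 and 49 of 250, with 28 in both. For the last 2 terms the shares in HepG2 lay above the 21.6% of all background genes, and in Huh7 they lay at or just under the 19.7%.

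**Figure D2:**
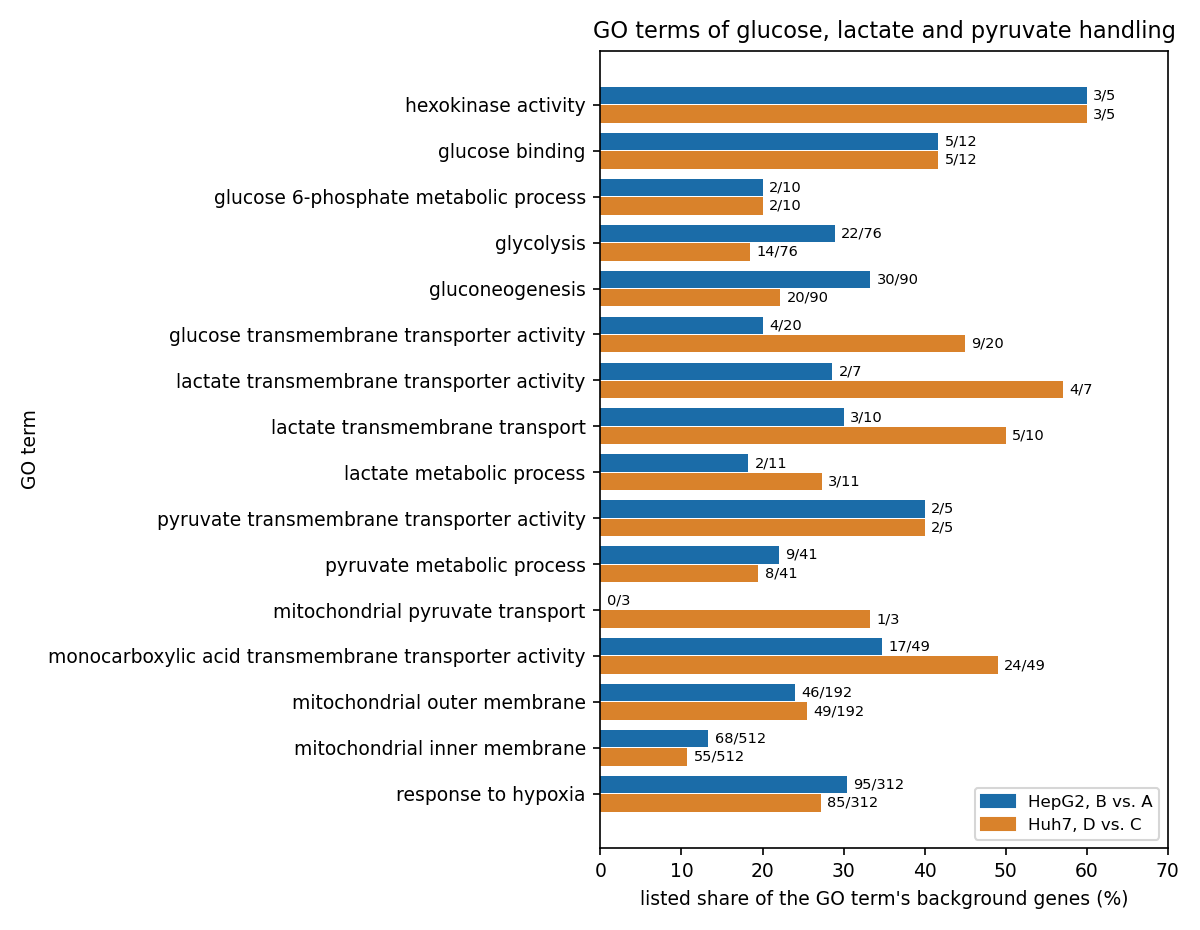
Bars give the share of each GO term's background genes that were listed, in percent, with blue bars for HepG2 cells (B vs. A), orange bars for Huh7 cells (D vs. C) and the number of listed over background genes at the end of each bar. Hexokinase activity stands at 3 of 5 in both lines, while lactate transmembrane transporter activity is at 2 of 7 in HepG2 and 4 of 7 in Huh7.

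The terms of a listed gene are its annotation, so they were the same in both lines for HK3 (127 terms), HKDC1 (82) and SLC16A7 (52). HK2 stood under 204 terms and HK1 under 183, and they had 130 terms in common. All 4 hexokinases shared 81 of the 286 terms that held any of them. Among the 7 listed genes, 70 terms held HK2 alone, and the narrowest of these was negative regulation of mitochondrial membrane permeability, followed by negative regulation of reactive oxygen species metabolic process and response to ischemia. For HK1 there were 42 such terms, the narrowest being positive regulation of cytokine secretion involved in immune response and peptidoglycan binding. For HK3 there were 29, led by secretory granule lumen and including neutrophil degranulation. HKDC1 had none, since each of its terms also held HK1 and HK2.

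SLC16A3 (also MCT4), which exports lactate from cells with high glycolysis, was listed in HepG2 only. SLC16A7 (also MCT2), a high-affinity carrier of pyruvate and lactate, was listed in both lines. SLC16A1 (also MCT1), the most widely expressed lactate carrier, was listed in neither, nor was BSG, the chaperone that brings SLC16A1 and SLC16A3 to the cell surface. EMB, the chaperone of SLC16A7, was listed in Huh7 only. Coding sequences of the 3 transporters were less alike than those of the hexokinases, with 61.5% of aligned bases shared by SLC16A1 and SLC16A7, 52.6% by SLC16A3 and SLC16A7, and 52.2% by SLC16A1 and SLC16A3.

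The counts that follow stand beside 21.6% (HepG2) and 19.7% (Huh7) of all background genes. Of 10 further SLC16 genes examined, 6 were listed in each line. With SLC16A1, SLC16A3 and SLC16A7 counted, 8 of these 13 genes were listed in HepG2 and 7 in Huh7. SLC16A4, SLC16A6 (a ketone body carrier of the liver), SLC16A9 (a carnitine carrier) and SLC16A10 (a carrier of aromatic amino acids) were in both lists. SLC16A11 (a liver carrier of pyruvate) and SLC16A12 (a creatine carrier) were listed in HepG2 only. SLC16A8, the lactate carrier of the retinal pigment epithelium, and SLC16A14 were listed in Huh7 only, as were SLC5A8 and SLC5A12, which take up lactate with sodium. SLC16A5 and SLC16A13 were in neither list. With the chaperones and the sodium-coupled carriers, the list of 17 genes had 8 listed in HepG2 and 10 in Huh7, with 5 in both and 4 in neither.

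The narrowest terms of SLC16A3 were plasma membrane lactate transport (2 of 5 listed in HepG2, SLC16A3 and MYC), lactate transmembrane transporter activity (2 of 7, SLC16A3 and SLC16A7) and lactate transport (3 of 10). In Huh7 cells lactate transmembrane transporter activity had 4 of 7 genes listed, which were SLC16A7, SLC16A8, SLC5A8 and SLC5A12. Between the lines, SLC16A7 was thus the only gene of this term in both lists. For SLC16A7, the narrowest terms were pyruvate secondary active transmembrane transporter activity, of which it is the only background gene, pyruvate transmembrane transport (2 of 2 genes in HepG2, with SLC16A11, and 1 of 2 in Huh7) and pyruvate transmembrane transporter activity (2 of 5 in each line). The second listed gene of the last term was SLC16A11 in HepG2 and MPC2 in Huh7. The broad term monocarboxylic acid transmembrane transporter activity had 17 of 49 genes listed in HepG2 (34.7%) and 24 in Huh7 (49%), with 13 in both.

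MPC2 was listed in Huh7 only, and its partner MPC1, without which the carrier does not form, was in neither list. MPC1L, the testis form of MPC1, was also in neither. The narrowest terms of MPC2 were mitochondrial pyruvate transport, in which it was the 1 listed gene of 3, pyruvate transmembrane transporter activity, and pyruvate transport (2 of 6, with SLC16A7). Mitochondrial pyruvate transport had no listed gene in HepG2. Of the 134 terms of MPC2, 54 held no other of the 7 listed genes, and several of these concern insulin secretion in response to glucose. Mitochondrial inner membrane, where the carrier sits, had 68 of 512 genes listed in HepG2 (13.3%) and 55 in Huh7 (10.7%), both under the shares of all background genes. Mitochondrial outer membrane, which held HK2 in HepG2 and HK1 in Huh7, had 46 of 192 (24%) and 49 (25.5%).

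HK2 and SLC16A3, both listed in HepG2 only, are known targets of the hypoxia-inducible factor HIF-1, and start regions of both are shown to place the letters that HIF-1 binds. Promoter windows of 250 bases before each start in RefSeq (GRCh38.p14) were searched on both strands for ACGTG and GCGTG, the core letters that HIF-1 binds, and for CACGTG, the E-box, which also holds ACGTG. Windows were at hand for 8 of the 9 genes, SLC16A1 being the exception. ACGTG was found in 18.5% of all 35116 windows, GCGTG in 32.2% and CACGTG in 6.34%. Over the 22 windows of the 9 genes, ACGTG was found in 3 (13.6%), GCGTG in 6 (27.3%) and CACGTG in 1 (4.55%). All 3 were under the shares of all windows. ACGTG was in both windows of HK2 and in 1 of the 5 windows of SLC16A3, and the number of windows differs between genes. It was in none of the 7 windows of HK1, the 3 of MPC2, the 2 of SLC16A7 or the 1 window each of HK3, HKDC1 and MPC1. Bases that GENCODE release 29 annotates as untranslated exon are left off below, and capitals mark ACGTG on either strand.
HK2, window 1, chr2:74833877-74833980, plus strand: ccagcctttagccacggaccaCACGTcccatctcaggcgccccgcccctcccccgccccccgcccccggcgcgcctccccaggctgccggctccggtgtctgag
HK2, window 2, chr2:74834920-74835169, plus strand: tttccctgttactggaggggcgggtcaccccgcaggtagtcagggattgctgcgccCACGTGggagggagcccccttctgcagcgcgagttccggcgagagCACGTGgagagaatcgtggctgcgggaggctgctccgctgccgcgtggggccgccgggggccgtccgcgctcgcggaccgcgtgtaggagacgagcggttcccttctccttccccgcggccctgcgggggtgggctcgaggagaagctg
SLC16A3, window 2, chr17:82228792-82229031, plus strand: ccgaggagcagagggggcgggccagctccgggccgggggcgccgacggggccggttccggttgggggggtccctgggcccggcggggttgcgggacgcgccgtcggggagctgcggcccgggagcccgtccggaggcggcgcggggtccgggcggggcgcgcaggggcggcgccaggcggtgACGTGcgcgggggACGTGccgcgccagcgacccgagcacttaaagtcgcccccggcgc
In HK2, window 2 lies past the opening coding exon and holds CACGTG at 194 and 149 bases before its start, and window 1 holds ACGTG at 229 and 48 bases before its start, of which the latter lies in the part left off. In SLC16A3 the matches lie 68 and 55 bases before the start. GCGTG was also found in 1 window of HK1, both of HK2, 2 of SLC16A3 and that of MPC1. A match is a description of letters, and no data on factor binding were used here. Response to hypoxia is a GO term that held HK2 in HepG2 and none of the 9 genes in Huh7. It had 95 of 312 genes listed in HepG2 (30.4%) and 85 in Huh7 (27.2%), with 48 in both. Of all background genes, 21.6% were listed in HepG2, 19.7% in Huh7 and 10.3% in both. Of all gene entries summed over KEGG pathways, 26.3% were listed in HepG2 and 25.8% in Huh7. HIF1A itself, the oxygen-sensitive subunit of HIF-1, was listed in Huh7 and not in HepG2. The tables concern its mRNA and not its protein. The KEGG HIF-1 signaling pathway held listed hexokinases in both lines. These were HK2, HK3 and HKDC1 in HepG2 and HK1, HK3 and HKDC1 in Huh7. Whether HIF-1 had a part in the listing of HK2, SLC16A3 or any other of the 9 genes was not tested.

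The other steps of the pathway are given beside the 21.6% (HepG2) and 19.7% (Huh7) of all background genes, with no test between steps. Of 16 glucose transporters, 4 (25%) were listed in HepG2 and 7 (43.8%) in Huh7, with SLC2A3 and SLC2A12 in both. Of the 20 enzymes that follow hexokinase in glycolysis, 4 were listed in HepG2 and 3 in Huh7, which is 20% and 15% and near the shares of all background genes. The only one in both lists was GAPDHS, the sperm form of glyceraldehyde-3-phosphate dehydrogenase, and 14 were in neither. Of the 5 enzymes that make or remove fructose-2,6-bisphosphate, the activator of phosphofructokinase, 3 were listed in HepG2 and 1 in Huh7, and PFKFB1, the liver form, was in both. Of 9 gluconeogenic genes, SLC37A4, FBP2 and PCK2 were listed in both lines and the other 6 in neither. SLC37A4 carries glucose 6-phosphate into the endoplasmic reticulum, FBP2 is the muscle form of fructose-1,6-bisphosphatase, and PCK2 is the mitochondrial form of phosphoenolpyruvate carboxykinase.

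At the lactate and pyruvate branch, 4 of 6 lactate dehydrogenases were listed in HepG2 and 2 in Huh7. LDHC, the testis form, and LDHAL6A were in both lists, and the main forms LDHA and LDHB, named after the lists had been seen, were in neither. Of 13 genes of the pyruvate dehydrogenase complex and its regulators, 2 were listed in each line, and PDK2, a kinase that inactivates the complex, was in both. Of 17 citrate cycle enzymes none was listed in HepG2 and 1 in Huh7, SDHC, a membrane subunit of complex II. Among 8 genes of complex II and its assembly, the listed gene was the assembly factor SDHAF2 in HepG2 and SDHC in Huh7. Of 9 genes tied to the permeability transition and to hexokinase at the outer membrane, none was listed in HepG2 and VDAC1, to which HK1 and HK2 bind, was listed in Huh7. In both lines the citrate cycle, permeability transition, complex II, pyruvate dehydrogenase and later glycolysis lists were thus below the shares of all background genes. The hexokinase, SLC16 and lactate dehydrogenase lists were above them in both lines. So were the glucose transporter and gluconeogenic lists, and the acid handling and hepatocyte marker lists described below, as the plot of listed shares shows. The fructose-2,6-bisphosphate list was above the share in HepG2 (60%) and near it in Huh7, with 1 of 5 genes (20%) beside 19.7%.

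**Figure D3:**
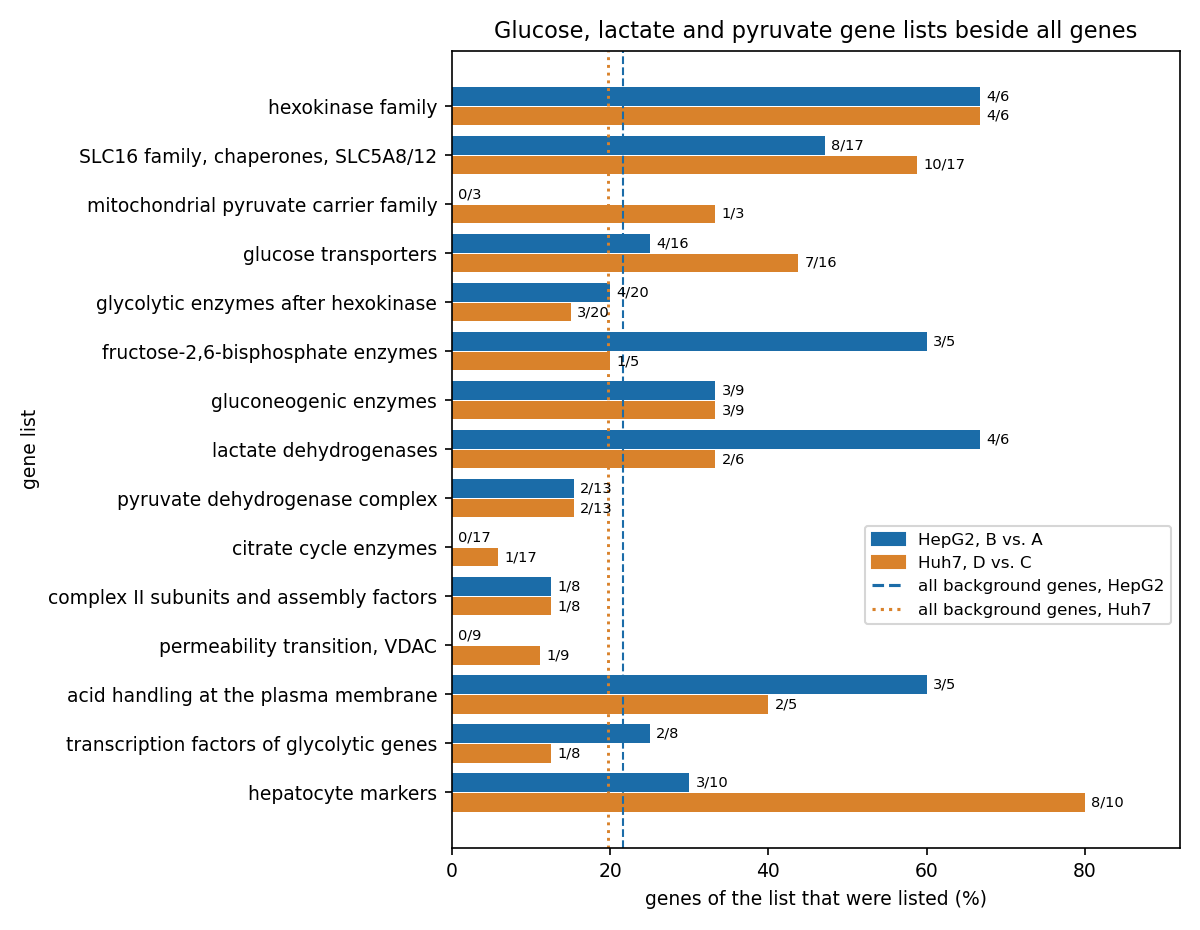
Bars give the percentage of genes of each list that were listed as differentially expressed, with blue bars for HepG2 cells (B vs. A), orange bars for Huh7 cells (D vs. C), listed over all genes of the list at the end of each bar, and dashed and dotted lines at the shares of all background genes, 21.6% and 19.7%. The list labelled hexokinase family, which also holds GCKR and ADPGK, stands at 4 of 6 in both lines. The citrate cycle stands at 0 and 1 of 17.

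Of 5 genes that handle acid at the cell surface, 3 were listed in HepG2 and 2 in Huh7. CA2, a carbonic anhydrase, and SLC4A4, a sodium-bicarbonate cotransporter, were in both lists. Of 8 transcription factors that act on glycolytic genes, MYC and MLXIPL (also ChREBP) were listed in HepG2 and HIF1A in Huh7, with none in both. With 2 and 1 of 8, the transcription factors lay near the shares of all background genes, 21.6% and 19.7%.

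The KEGG pathway Glycolysis / Gluconeogenesis (hsa00010) had 20 of 66 background genes listed in HepG2 (30.3%) and 16 in Huh7 (24.2%), with 10 in both and 26 in either. Of all gene entries summed over the KEGG pathways of a table, 26.3% were listed in B vs. A and 25.8% in D vs. C, and the 95% Wilson intervals of the pathway's shares, which cover counting error over genes only, held these levels (20.6% to 42.2% in HepG2 and 15.5% to 35.8% in Huh7). Over 33 glycolytic and gluconeogenic genes set by hand the shares were 30.3% and 27.3%, so whether the Huh7 share lay above or below 25.8% depended on the gene set. Among pathways with at least 10 background genes, 75 of 272 had a higher share in HepG2 and 158 of 274 in Huh7, with a median of 26.1% in each. In HepG2 cells 3 of the 20 were hexokinases (HK2, HK3 and HKDC1) and 7 were alcohol or aldehyde dehydrogenases. In Huh7 cells 3 of the 16 were hexokinases (HK1, HK3 and HKDC1) and 5 were alcohol or aldehyde dehydrogenases. The 10 genes in both lists were HK3 and HKDC1, the dehydrogenases ADH1C, ALDH1B1 and ALDH3A1, and FBP2, GAPDHS, LDHAL6A, LDHC and PCK2.

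**Figure D4:**
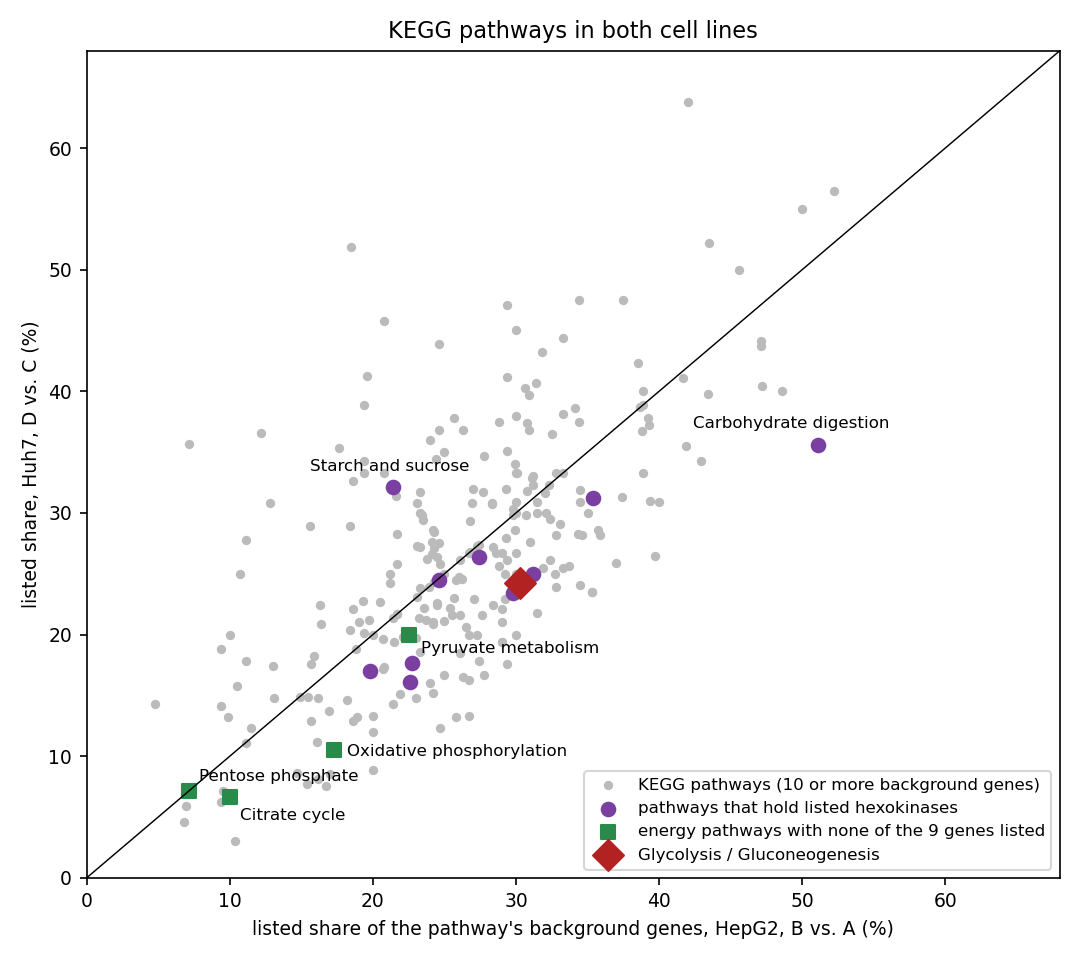
Each point is 1 of the 272 KEGG pathways with at least 10 background genes in both tables, placed by the share of its genes listed in HepG2 (horizontal axis, percent) and in Huh7 (vertical axis, percent), with the line of equal shares. Glycolysis / Gluconeogenesis (red diamond, 30.3% and 24.2%) lies within the cloud of pathways. Of the green squares, the citrate cycle, pentose phosphate pathway and oxidative phosphorylation lie at its lower end. Pyruvate metabolism (22.5% and 20%), also a green square, lies within the cloud.

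Each listed hexokinase stood in the same 12 KEGG pathways, in both lines where it was listed in both. SLC16A3, SLC16A7 and MPC2 stood in no KEGG pathway of either table. Beside Glycolysis / Gluconeogenesis, the sugar pathways were Fructose and mannose metabolism (10 and 8 of 32 genes listed in HepG2 and Huh7 cells), Galactose metabolism (7 and 5 of 31), Starch and sucrose metabolism (12 and 18 of 56), Amino sugar and nucleotide sugar metabolism (14 and 11 of 47) and Butirosin and neomycin biosynthesis (3 and 3 of 5, all hexokinases). The broad ones were Carbon metabolism (21 and 18 of 106) and Metabolic pathways (298 and 297 of 1213). The signalling and physiology pathways were HIF-1 signaling pathway (29 and 28 of 106), Insulin signaling pathway (32 and 25 of 141), Type II diabetes mellitus (17 and 15 of 48) and Carbohydrate digestion and absorption (23 and 16 of 45). The last of these had the second highest share among the ranked pathways in HepG2, 51.1%, and 35.6% in Huh7. Other energy pathways hold none of the 7 listed genes, by annotation. Shares were low in the Citrate cycle (3 and 2 of 30) and the Pentose phosphate pathway (2 and 2 of 28). Oxidative phosphorylation had 23 and 14 of 133 (17.3% and 10.5%), and Pyruvate metabolism 9 and 8 of 40.

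Longer transcripts gather more reads and so can be called more readily, and the median length of the longest transcript was 3332 bases among listed protein-coding genes in B vs. A and 3270 in D vs. C, beside 3157 bases over all protein-coding genes. Among the 9 genes this length ran from 1192 bases in MPC1 and 2177 in MPC2 to 11777 in SLC16A7. Their median was 3998 bases, longer than that of all protein-coding genes and of the listed ones. SLC16A1, listed in neither line, had 4374 bases and HK3, listed in both, had 3066. The part of transcript length in the listing was not tested.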

How the data were processed

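The authors depleted total RNA of ribosomal RNA, prepared strand-specific libraries, called mRNAs as differentially expressed where the adjusted p-value was under 0.05 (Cuffdiff in the paper's methods, edgeR in its results) and tested GO terms and KEGG pathways. The submitters' processing notes name Bowtie2 2.2.8, HISAT2, StringTie 1.3.1 and Cuffdiff 2.1.1. The genome build and annotation are not given in the sources used here. The deposited tables, 2 per comparison, give numbers of listed and background genes and the identifiers of listed genes, per the file headers. Their p-value columns were not used.

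The listed genes of a comparison were all identifiers found under any of its GO terms, which gave 4783 genes in B vs. A and 4369 in D vs. C. GENCODE release 29 and a table of symbols named the genes. The 9 genes, the 15 gene lists and the motifs were chosen with earlier results of these data known. Some genes of these families are not reported here. The text names the other genes of the 3 families, list genes in both comparisons or otherwise in 1, the genes of Glycolysis / Gluconeogenesis in both, and for each listed gene its 3 narrowest GO terms, its KEGG pathways and the gene with the most similar terms.

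Protein sequences, planned for the comparison within families, were not used here, and coding sequences took their place (APPRIS principal transcript of lowest number, global alignment in Biopython 1.88, match 2, mismatch -1, gap opening -5, gap extension -1, identity over all columns). Shared stretches of 75 bases were sought in all GENCODE transcripts on the same strand. The readers, the motif search and the alignment were tested on simulated tables and sequences. Alternatives took KEGG pathways in place of GO terms, each GO domain alone, MPC1L and SLC16A8 as further genes (chosen after seeing the data), and other denominators. With 1 library in each of the 4 groups no test between groups was run. The depth is unknown, since the tables hold no reads.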

Additional observations from a re-analysis of the deposited data

How the results depend on the processing

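Of 24 values computed under an alternative, 20 stayed within 1.5 times the count or, for a share of genes, within its 95% binomial interval. This count says little about robustness, since some alternatives could not change the result. The share of all KEGG gene entries was also counted as an alternative, though it is a background level. With KEGG pathways in place of GO terms, 3 of the 9 genes were listed in B vs. A and 3 in D vs. C instead of 5 and 5, because SLC16A3, SLC16A7 and MPC2 stood in no KEGG pathway of either table. The count in both comparisons was then 2 (HK3 and HKDC1). Each GO domain alone gave 5, 5 and 3 as before, which was fixed by annotation because every listed gene had terms in all 3 domains. With MPC1L and SLC16A8 added, an alternative chosen after seeing the data, 5 and 6 of 11 genes were listed. Over protein-coding genes the listed share of all genes was 23.9% and 21.9% instead of 21.6% and 19.7%. The share of glycolytic and gluconeogenic genes was 30.3% in HepG2 and 27.3% in Huh7 over 33 genes set by hand, beside 30.3% and 24.2% in the KEGG pathway. No paired analysis was possible because each group has 1 library and the tables give no values per sample. For the same reason no library could be left out.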

Other observations

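Of 10 hepatocyte marker genes, 3 were listed in HepG2 and 8 in Huh7. ALB (albumin), AFP (alpha-fetoprotein) and HNF4A, a transcription factor of the hepatocyte, were in both lists. TTR, APOA1, APOB, FGA and FGB, which encode proteins the liver secretes into plasma, were listed in Huh7 only, and TF and SERPINA1 in neither. The share listed in Huh7 was thus 80%, beside 19.7% of all background genes, and the direction of the changes is not given in the tables.

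The gene with the most similar set of GO terms was most often of the same family, which describes the annotation of the listed genes and not their levels. HK3 and HKDC1 were nearest to each other in both lines, with a Jaccard index (shared terms over all terms of the pair) of 0.633. HK2 was nearest to HKDC1 in HepG2 (0.402) and HK1 to HK3 in Huh7 (0.462). SLC16A3 was nearest to SLC16A11 (0.586), and the nearest genes to SLC16A7, at 0.808, included SLC16A4 in both lines. MPC2 was nearest to VSNL1, a calcium sensor of neurons, with 88 terms in common (0.571).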
